A study of Mus musculus with 7 samples.

Results

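The baseline transcriptome of splenic regulatory T cells (Tregs) was described from the 3 libraries of mice that received PBS, out of 7 libraries in the series. The members were all samples whose label names PBS as the injected agent. The mice were RFP-FoxP3+ reporters on the BL6 background, with the strain given as C57/BL6, and carried no other allele or agent that the labels name. Each received 100 uL of PBS, and Tregs were sorted from the spleen 72 h later. The other 4 libraries came from mice given FP, the IL-2/CD25 fusion protein, and were not used here. The sources used here give no sex, age, sort gate or number of mice per sample, so the spread between libraries may be technical. With a single group there was no contrast to test, and all values below are descriptions, with errors as the SD over the 3 libraries.

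Tregs are CD4 T cells that restrain the responses of other immune cells. Their identity rests on the transcription factor Foxp3, and their survival rests on interleukin-2, which they bind through a receptor of 3 chains: the alpha chain CD25 (Il2ra), the beta chain (Il2rb) and the common gamma chain (Il2rg). Binding activates the kinases Jak1 and Jak3 and then the factors Stat5a and Stat5b. In the spleen, Tregs lie beside B cells, other T cells, dendritic cells and the macrophages of the red pulp, which take up aged red cells and recycle their iron.

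Promoters were compared between genes of different abundance, and 5 are printed as examples with and without the motifs that were counted. A promoter is the stretch from 250 bases before to 50 after a gene's RefSeq start in GRCm38.p6. The motif CCGGAA, the core letters that factors of the ETS family are known to bind, was searched on both strands, as was TATAAA, the letters of the TATA box. The motifs do not overlap each other in the sequences below, where capitals mark a match. The ribosomal protein gene Rps3a1 (chr3:86142619-86142918, minus strand) and the receptor gene Il2rg (chrX:101268206-101268505, minus strand) hold CCGGAA. Foxp3 (chrX:7579426-7579725, plus strand) and Ctla4 (chr1:60908775-60909074, plus strand) hold TATAAA, and Il2ra (chr2:11642542-11642841, plus strand) holds neither. The TATAAA match lies before the start in Foxp3, but after the start, near the end of the stretch, in Ctla4. Foxp3 has another RefSeq start, whose promoter (chrX:7580233-7580532, plus strand) holds neither motif and is not printed.
Rps3a1: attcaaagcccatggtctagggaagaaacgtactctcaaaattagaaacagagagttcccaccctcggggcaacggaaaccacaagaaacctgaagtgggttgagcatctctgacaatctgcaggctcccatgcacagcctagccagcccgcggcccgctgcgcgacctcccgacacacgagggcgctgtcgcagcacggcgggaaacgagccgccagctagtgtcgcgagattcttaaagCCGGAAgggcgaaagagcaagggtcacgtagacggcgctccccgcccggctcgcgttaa
Il2rg: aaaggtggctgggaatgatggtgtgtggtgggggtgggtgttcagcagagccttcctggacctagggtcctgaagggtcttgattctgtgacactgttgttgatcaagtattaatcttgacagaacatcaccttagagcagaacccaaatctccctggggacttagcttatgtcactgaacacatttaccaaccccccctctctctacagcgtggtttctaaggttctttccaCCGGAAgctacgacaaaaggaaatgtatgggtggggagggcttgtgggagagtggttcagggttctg
Foxp3: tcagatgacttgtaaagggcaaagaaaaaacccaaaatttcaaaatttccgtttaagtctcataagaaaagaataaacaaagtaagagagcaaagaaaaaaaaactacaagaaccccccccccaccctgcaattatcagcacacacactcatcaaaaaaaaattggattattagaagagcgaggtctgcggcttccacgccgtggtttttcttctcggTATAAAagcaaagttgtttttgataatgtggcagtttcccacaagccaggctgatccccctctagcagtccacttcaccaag
Ctla4: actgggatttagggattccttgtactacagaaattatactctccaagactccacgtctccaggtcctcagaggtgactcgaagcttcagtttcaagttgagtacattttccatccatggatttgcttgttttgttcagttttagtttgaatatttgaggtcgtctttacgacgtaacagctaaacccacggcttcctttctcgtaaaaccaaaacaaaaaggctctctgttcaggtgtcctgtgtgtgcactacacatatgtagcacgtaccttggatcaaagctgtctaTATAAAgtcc
Il2ra: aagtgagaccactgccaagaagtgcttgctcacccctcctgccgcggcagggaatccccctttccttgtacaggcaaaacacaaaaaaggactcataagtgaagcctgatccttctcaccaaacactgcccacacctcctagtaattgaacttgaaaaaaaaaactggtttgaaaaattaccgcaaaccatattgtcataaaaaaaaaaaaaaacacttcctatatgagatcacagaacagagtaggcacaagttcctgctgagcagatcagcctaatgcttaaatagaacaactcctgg

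CCGGAA was more frequent in promoters of detected genes than in those of genes with no count, and TATAAA was less frequent. Of all 20095 promoters of 16469 coding genes, 19.2% held CCGGAA and 12.1% held TATAAA. The share with CCGGAA was 27.1% among the 500 most abundant genes, 28.0% among other detected genes, 9.53% among genes with a count but under 1 CPM (counts scaled to the library total) in some library, and 5.39% among genes with no count. In the same order, TATAAA was held by 10.7%, 6.94%, 11.8% and 24.1% of promoters. The median GC content in these 4 classes was 60.7%, 60.7%, 55.3% and 47.3%. Among ribosomal protein genes, 36 of 75 promoters (48%) held CCGGAA, against 7 of 42 for the Treg transcription factor list and 0 of 10 for the red pulp macrophage list. A match is a run of letters and not a measured binding site.

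The libraries held 10570297, 12208512 and 9956509 counts in replicates 1, 2 and 3, so a count of 0 allows up to 0.246 to 0.301 CPM. A gene was called detected at 1 CPM or more in each of the 3 libraries. This held for 14729 of 51138 genes (28.8%) and for 11495 of 21828 protein-coding genes of the nuclear genome (52.7%). Levels of different genes are compared below as TPM, counts per exon length scaled to the same total in each library, and levels of the same gene between libraries as CPM. Sums over marker lists, and the shares of single genes in them, are in CPM, so longer transcripts weigh more in them. The median TPM of the detected coding genes was 19.6. Protein-coding genes took 83.5% ± 0.374 of the counts. The long noncoding gene Gm26917 (chr17:39843013-39846341, plus strand), which lies in the assembled copy of the ribosomal RNA repeat, took 8.68% ± 0.657. Small RNA genes took 2.84% ± 0.332, and proteins encoded by mitochondria took 0.936% ± 0.111.

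Replicate 1 stood apart from the other 2 libraries, so counts of variable genes are also given without it. Over all genes, the counts of replicate 1 differed more from those of replicates 2 and 3 (chi-square per gene of 8.86 and 8.95) than these did from each other (3.46). No pair agreed within counting noise. This does not show that they are separate animals, and they were counted as 3 samples because the labels list them so.

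The Treg markers were abundant in every library. Foxp3 (chrX:7573644-7595245, plus strand), the factor that defines the lineage, had 525, 557 and 555 CPM in replicates 1, 2 and 3. Ikzf2 (chr1:69531214-69687245, minus strand), which encodes the factor Helios, had 1284, 1153 and 1225 CPM. Il2ra (chr2:11642807-11693193, plus strand) had 680, 671 and 653 CPM. No library was low for all of these markers, and the highest library was at most 1.16-fold the lowest on CPM scaled by trimmed mean of M values (TMM) for the 3 genes. In TPM, Foxp3 reached 326 ± 25.0, Il2ra 319 ± 9.03 and Ikzf2 287 ± 14.0, which put them at ranks 153, 158 and 186 among nuclear coding genes. TPM depends on which genes enter the total: without mitochondrial, ribosomal and small RNA these means were 551, 541 and 486 TPM. Foxp3 shares exon sequence on its own strand with the noncoding gene Flicr (73.4 ± 7.26 CPM) and overlaps Ccdc22, Gm36995 and Ppp1r3f on the other strand. The division of its reads among these genes is uncertain, because the sources used here do not give the strand setting. In bulk RNA, fewer cells of a type and less RNA per cell cannot be told apart.

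The T cell identity of the sort was visible in the coreceptors. Cd4 had 459, 430 and 420 CPM, while Cd8a, the coreceptor of cytotoxic T cells, had 2.46, 2.54 and 3.41 CPM. All 3 libraries were alike in this: in TPM, Cd4 was 144 ± 29.7 times Cd8a, and the ranges did not overlap. Cd8b1, the other chain of that coreceptor, exceeded Cd8a in 3 of 3 libraries. Mean levels were 13.9 TPM for Cd8b1, 2.12 TPM for Cd8a and 295 TPM for Cd4. Cd3e, a signalling chain of the T cell receptor, stood at 432 ± 10.2 TPM. The constant segments of the receptor stood higher, with Trbc2 at 1918 ± 61.3 TPM, Trac at 1288 ± 108 TPM and Trbc1 at 995 ± 35.1 TPM. That order held in 3 of 3 libraries without overlap, although Trbc1 and Trbc2 are near-identical copies whose reads the counting could have split.

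The most abundant coding transcripts were those of the cytoskeleton, translation and antigen presentation. Actb, the cytoskeletal actin, led with 6879 ± 298 TPM, followed by the elongation factor Eef1a1 with 5104 ± 461 TPM. B2m, the light chain of class I MHC molecules, had 4041 ± 288 TPM, and Tmsb4x, which binds actin monomers, had 3410 ± 171 TPM. The heavy chains H2-K1 (2050 ± 18.1 TPM) and H2-D1 (1475 ± 21.8 TPM) were also among the 15 highest, as were the ribosomal protein genes Rps15, Rplp1, Rps3a1, Rps27, Rpl4 and Rpl36, the elongation factor Eef2 and Tpt1. Actb, Eef1a1, B2m, Tmsb4x and Rps15 kept ranks 1 to 5 in each library. By counts, the 10 highest genes were Gm26917, the small RNA Rn7sk, the nuclear noncoding RNA Malat1, Actb, the RNase P RNA Rpph1, Eef1a1, mt-Co1, the cytoskeletal linker Macf1, the phosphatase Ptprc (CD45) and the myosin Myh9, and they took 14.9% ± 0.781 of all counts. The top 1000 genes took 53.7% ± 1.17.

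**Figure D1:**
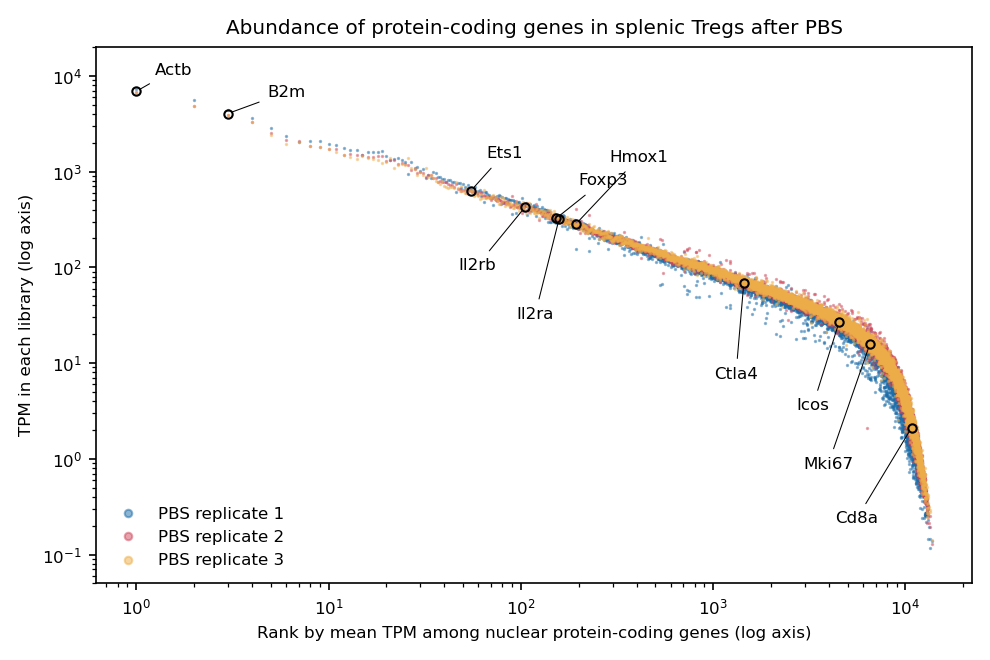
TPM of the 11495 detected nuclear coding genes in each PBS library (vertical log axis) against their rank by mean TPM (horizontal log axis), with small coloured points for the 3 libraries and open circles for the means of named genes. Foxp3 and Il2ra lie at ranks 153 and 158, Ctla4 at 1443 and Icos at 4511, and blue points of replicate 1 below the band mark genes that were low in that library.

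Surface receptors were widely detected. Of the cytokine receptor list, 27 of 30 genes were detected, against 52.7% of all nuclear coding genes, with a median of 63.1 TPM. The beta chain of the interleukin-2 receptor was the most abundant member in TPM, whereas Il2ra had the highest mean CPM. Il2rb had 715, 695 and 591 CPM in replicates 1, 2 and 3. Il2rg had 247, 234 and 236 CPM. Replicate 3 was the lowest for Il2rb, whereas Il2rg hardly differed between libraries. In TPM the chains ordered as Il2rb (424 ± 27.3), Il2ra (319 ± 9.03) and Il2rg (273 ± 7.38), in 3 of 3 libraries and with no overlap between neighbours. The ratio of Il2rb to Il2rg was 1.55 ± 0.139.

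Other cytokine receptors followed at lower levels. Il27ra, a chain of the interleukin-27 receptor, had 225 ± 24.6 TPM, Il21r had 193 ± 14.4 TPM and Ifngr1, a chain of the interferon-gamma receptor, had 174 ± 7.83 TPM. The order of these neighbours held within each of the 3 libraries, although their ranges over the libraries overlapped. Il7r, the interleukin-7 receptor chain that is usually low on Tregs, had 195, 184 and 186 CPM, or 110 ± 3.06 TPM. It lay below Il2ra in each library. Il12rb1 was listed at 0 in each library. Its neighbours on the chromosome were at or near 0 as well, so the listed 0 is not read as absence.

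Among costimulatory and coinhibitory receptors, 23 of 24 were detected (median 57.5 TPM), against 52.7% of nuclear coding genes. The adhesion receptor Cd2 led with 641 ± 8.40 TPM, ahead of the inhibitory receptors Cd5 (246 ± 3.82 TPM) and Cd96 (233 ± 4.35 TPM), Vsir (166 ± 7.01 TPM) and Tigit (163 ± 20.4 TPM). Vsir and Tigit overlapped, while each of the higher neighbours held its place in 3 of 3 libraries. Ctla4, the inhibitory receptor that competes with Cd28 for its ligands, had 61.5, 56.7 and 57.6 CPM, or 68.6 ± 1.79 TPM. Cd28 stood lower, at 17.8 ± 2.86 TPM, and Icos, a costimulatory relative of Cd28, at 26.7 ± 2.96 TPM. Pdcd1 (PD-1) had 83.0 ± 3.86 TPM and Lag3 had 25.0 ± 2.05 TPM.

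The TNF receptor superfamily had 14 of 16 members detected (median 44.6 TPM), against 52.7% of nuclear coding genes. Cd27 (326 ± 30.7 TPM) and Tnfrsf4, or OX40 (293 ± 14.3 TPM), overlapped at the top. Below them, Tnfrsf1b, the second receptor for TNF, had 189 ± 8.33 TPM, Tnfrsf18, or GITR, had 167 ± 5.79 TPM and Tnfrsf9, or 4-1BB, had 107 ± 2.46 TPM. These 3 held their order in each library. Cd40, a receptor of B cells and other antigen-presenting cells, was under 1 CPM in each library (0.378, 0.901 and 0.603).

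The highest homing receptors were those of lymphoid tissue. S1pr1, which guides lymphocytes out of lymphoid organs, had 348 ± 24.5 TPM, and Ccr7, which guides them into T cell zones, had 222 ± 15.9 TPM. By comparison, the receptors Cxcr3, Ccr8 and Ccr4 stood at 59.1 ± 7.19, 49.3 ± 6.22 and 42.0 ± 5.47 TPM, below S1pr1 and Ccr7 in every library. Of this list, 22 of 25 were detected (median 38.6 TPM), against 52.7% of nuclear coding genes. Ccr1, Ccr10 and Xcr1 stayed under 1 CPM throughout. Ccr2 was 1 of the few receptors with a wide range, at 39.3, 19.7 and 31.4 CPM, with replicate 2 the lowest.

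Integrins and adhesion molecules included several of the highest receptor transcripts. Of this list, 29 of 31 were detected, against 52.7% of nuclear coding genes, with a median of 102 TPM. Ly6e had 599 ± 3.60 TPM and Itgb7, the beta chain of the gut-homing integrin, had 493 ± 33.2 TPM. Izumo1r, the folate receptor 4 of Tregs, had 358 CPM in each of the 3 libraries, or 422 ± 19.8 TPM. The LFA-1 chains Itgb2 and Itgal had 415 ± 23.2 and 318 ± 6.83 TPM. Itgae, the CD103 chain that binds epithelial cadherin, was lower at 49.6 ± 3.70 TPM, as was Klrg1, a receptor of activated T cells, at 51.8 ± 4.16 TPM. Nrp1, a surface marker of thymus-derived Tregs, had 102 ± 9.49 TPM.

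**Figure D2:**
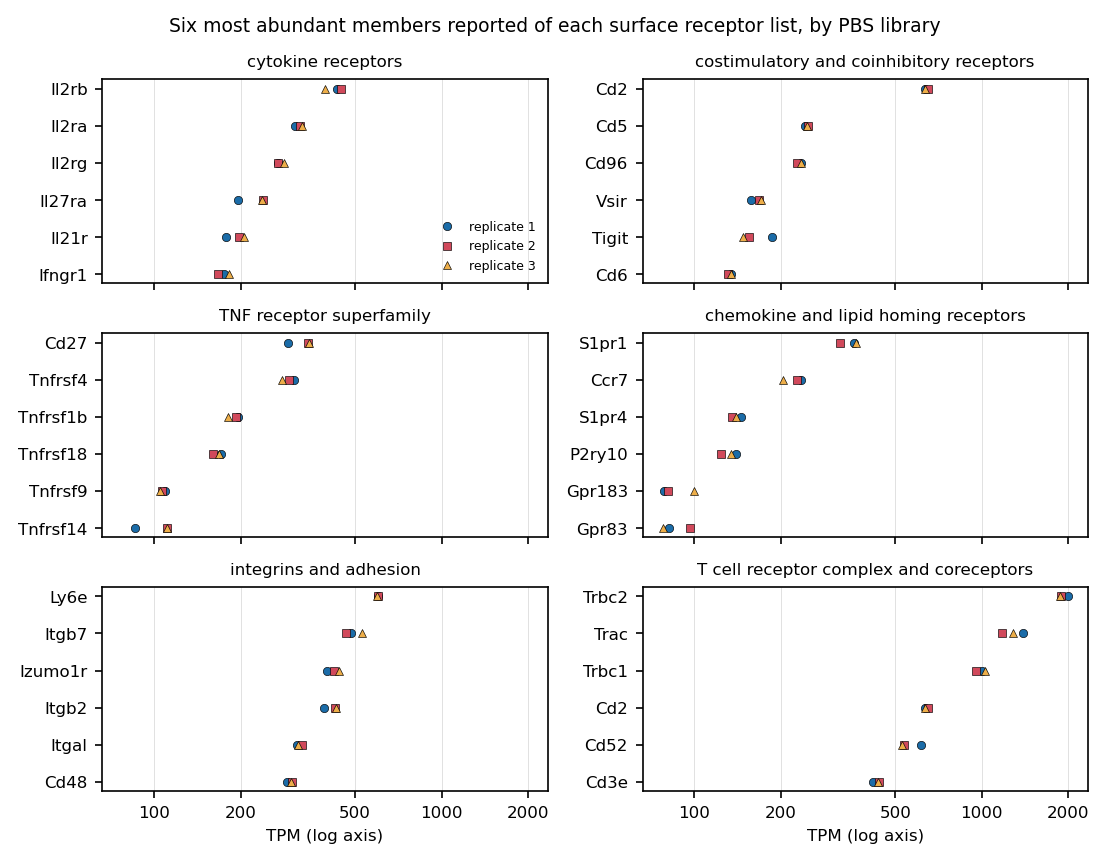
TPM (log axis) of the 6 most abundant members reported here of each surface receptor list, with 1 symbol per PBS library. Il2rb lies above Il2ra and Il2rg in each library, while neighbours such as Vsir and Tigit, or Cd27 and Tnfrsf4, overlap.

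Transcription factors of Tregs were detected without exception: 36 of 36, against 52.7% of nuclear coding genes, with a median of 65.6 TPM. A gene was called variable where its highest library was at least 2-fold its lowest on TMM-scaled CPM. None of the list was (0 of 36), against 307 of 11246 genes (2.73%) with a mean of at least 5 CPM. At that share, a count of 0 in a list of this size does not set the list apart. Foxp3 and Ikzf2 headed the list with overlapping ranges, though Foxp3 was the higher in 3 of 3 libraries. Ikzf1, or Ikaros, followed with 240 ± 4.76 TPM. Ikzf4, or Eos, a partner of Foxp3 in gene repression, had 126, 140 and 133 CPM. Foxp3 was 5.38 ± 0.138 times Ikzf4 in TPM. Foxo1, which keeps T cells quiescent, had 132 ± 9.05 TPM, and Gata3 and Nfatc1 had 119 ± 0.682 and 115 ± 7.01 TPM with overlapping ranges.

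Irf4 and Batf, needed for effector Tregs, had 42.0 ± 4.03 and 67.6 ± 6.32 TPM, on either side of the median of the Treg factor list, and Prdm1 (Blimp-1) had 17.5 ± 0.708 TPM. Tbx21, the T-bet factor of type 1 responses, had 6.62, 5.57 and 7.13 CPM. It was detected in each library but stood far below Foxp3, which was 46.6 ± 6.74 times Tbx21 in TPM.

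The list of resting T cell factors ranged from 2.03 to 631 TPM, with a median of 93.9 TPM. Ets1, the most abundant member, had 2123, 1919 and 1844 CPM, or 631 ± 17.0 TPM, at rank 55. Tcf7, the TCF-1 factor of naive and memory T cells, had 488 ± 19.0 TPM and its relative Lef1 had 88.2 ± 6.52 TPM. Klf2, which drives S1pr1, had 422 ± 22.5 TPM. The order Ets1, Tcf7, Klf2 and then the RNA-binding protein gene Zfp36l2 (359 ± 28.6 TPM) held in 3 of 3 libraries with no overlap. Bcl11b and Klf13 overlapped at 180 ± 5.76 and 178 ± 5.0 TPM. Of this list 24 of 24 were detected, against 52.7% of nuclear coding genes. Of 22 tested members 1 varied, Zeb2, against 2.73% of all tested genes. Zeb2 had 25.7, 76.1 and 61.2 CPM, lowest in replicate 1 and highest in replicate 2, as were the red pulp macrophage markers described below. Its range was 2.84-fold, and 1.28-fold without replicate 1. Which cells its reads came from was not tested.

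Immediate early genes, which cells induce within minutes of a stimulus, were highest in replicate 1. Junb, an AP-1 subunit, had 461, 262 and 267 CPM. Fos had 159, 75.0 and 114 CPM, and Fosb had 156, 64.1 and 103 CPM. Replicate 1 exceeded both other libraries for each. All 17 members with a mean of at least 5 CPM were highest in replicate 1 on TMM-scaled CPM, where 4642 of 11246 genes (41.3%) were. Fos, Fosb and Klf4 passed the 2-fold mark, and without replicate 1 none of the 17 did. The median log2 ratio of this list was -0.35 for replicate 2 to replicate 1 and -0.47 for replicate 3 to replicate 1, against -0.01 and -0.03 over all genes. What sets replicate 1 apart was not tested. Jund was listed at 0 in each library and, like Il12rb1, lies in a run of genes at or near 0.

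The STAT and interferon regulatory factor list was detected in full, 15 of 15, against 52.7% of nuclear coding genes. Stat5b, the main carrier of the interleukin-2 signal with Stat5a, had 140 ± 4.2 TPM and Stat5a had 50.4 ± 2.48 TPM. Stat5b was 2.78 ± 0.107 times Stat5a, and the ranges did not overlap. Irf1 led the list with 213 ± 16.4 TPM, followed by Stat6 at 151 ± 11.7 TPM. The ranges of Stat3 (79.4 ± 2.11 TPM) and Irf3 (81.9 ± 8.07 TPM) overlapped. Stat3 and Stat5a overlap on opposite strands, so some of their reads may not be told apart.

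Genes of proximal T cell receptor signalling were detected in full, 30 of 30, against 52.7% of nuclear coding genes. Their median was 117 TPM. Lck, the kinase that starts the signal, had 568, 557 and 556 CPM, or 522 ± 18.9 TPM. The related kinase Fyn had 276 ± 17.8 TPM, and Lck was 1.89 ± 0.0550 times Fyn. Zap70, the kinase that Lck activates, had 177 ± 10.9 TPM. The adaptors Fyb (300 ± 40.6 TPM), Lcp2 (289 ± 27.2 TPM) and Lat (266 ± 11.2 TPM) lay close together with Fyn, and the ranges of these neighbours overlapped. Rasgrp1, which activates Ras after receptor engagement, had 235 ± 5.75 TPM.

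Downstream of cytokine receptors, Jak1 had 916, 822 and 847 CPM and Jak3 had 172, 217 and 198 CPM. Replicate 1 was the highest for Jak1 and the lowest for Jak3, and in TPM Jak1 was 3.31 ± 0.581 times Jak3 in 3 of 3 libraries. Mcl1, a survival factor, led this list at 485 ± 5.26 TPM, and Bcl2, another survival factor, had 119 ± 5.66 TPM. Among genes that interleukin-2 is known to induce, Cish, a feedback inhibitor, had 152, 183 and 174 CPM, or 72.4 ± 9.29 TPM. Socs3 had 120 ± 15.4 TPM, Socs1 had 55.3 ± 1.59 TPM and Pim1 had 193 ± 17.3 TPM. All 21 members were detected, against 52.7% of nuclear coding genes. None varied 2-fold, where 2.73% of all tested genes did, so this does not set the list apart.

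The PI3K list (20 of 20 detected), the MAP kinase list (23 of 23) and the TGF-beta list (14 of 16) had medians of 45.9, 43.1 and 62.3 TPM. Over all nuclear coding genes, 52.7% were detected. Pik3cd, the leukocyte PI3K subunit, had 217 ± 21.5 TPM, and the lipid phosphatase Inpp5d had 101 ± 11.9 TPM. Lrrc32, or GARP, which displays latent TGF-beta on Tregs, had 169 ± 14.8 TPM. Tgfb1 itself had 177, 205 and 186 CPM, or 103 ± 10.6 TPM, and the receptor chain Tgfbr2 had 87.5 ± 4.53 TPM. In the MAP kinase list, the Ras inhibitor Rasal3 had 240 ± 25.1 TPM and the phosphatases Dusp2 and Dusp1 had 220 ± 15.3 and 160 ± 43.2 TPM. Dusp1 was highest in replicate 1 (266 CPM, against 151 and 171). No member of these lists varied 2-fold, where 2.73% of all tested genes did, so this does not set them apart.

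**Figure D3:**
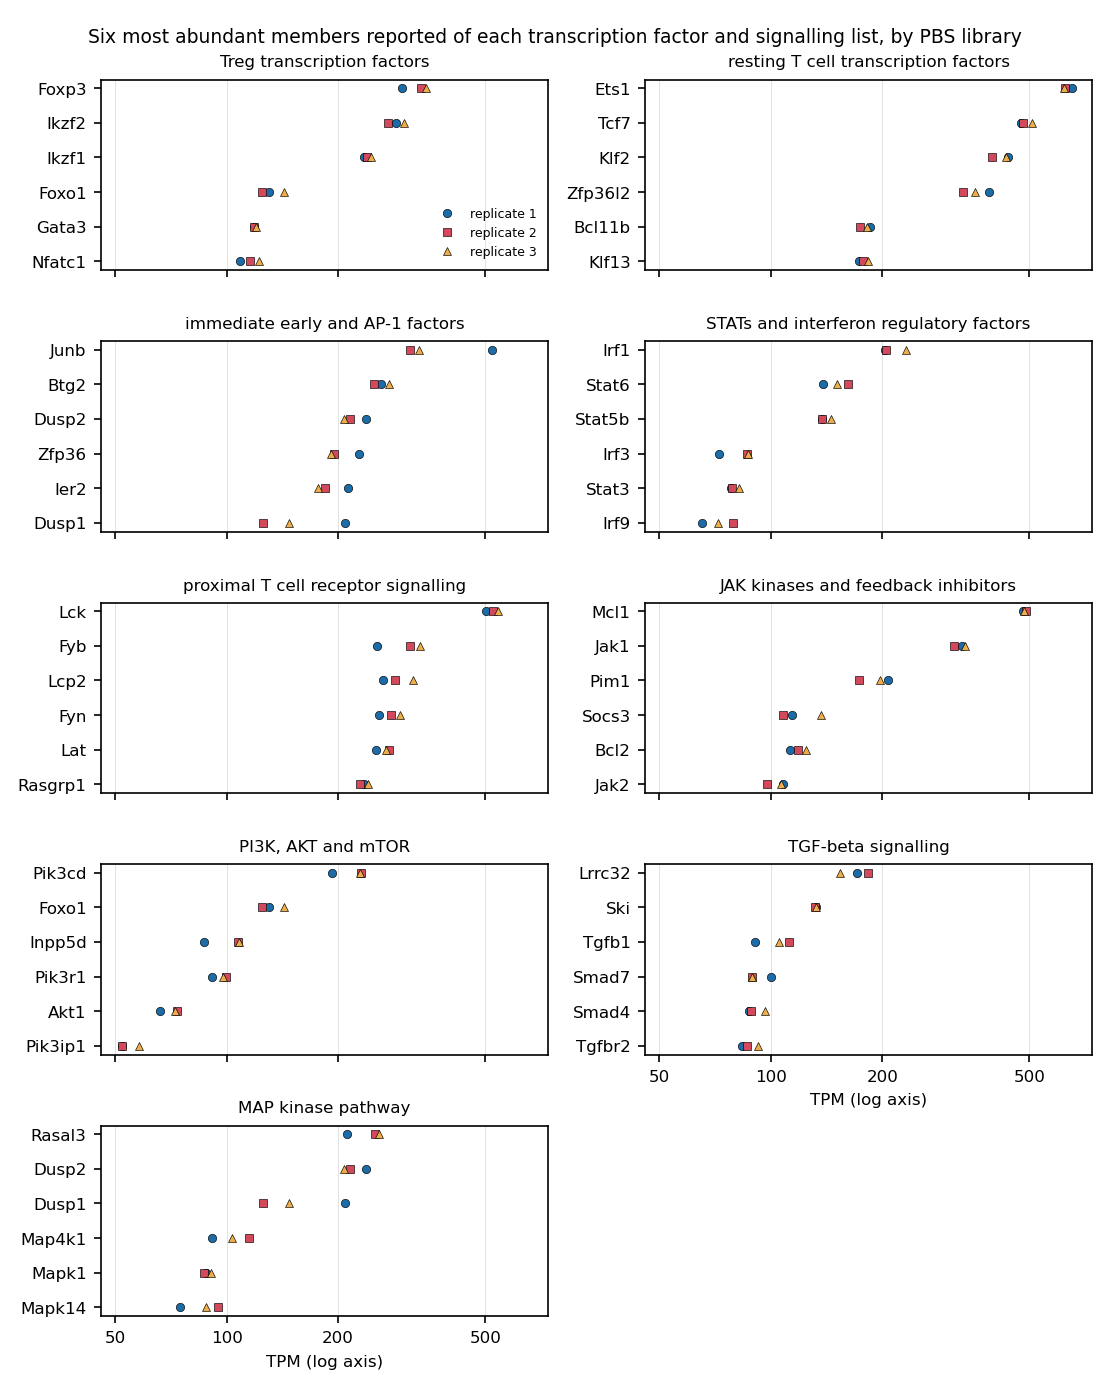
TPM (log axis) of the 6 most abundant members reported here of each transcription factor and signalling list, with 1 symbol per PBS library. Replicate 1 lies to the right of the other libraries for Junb and Dusp1, while Ets1, Ikzf1, Gata3 and Mcl1 show nearly coincident symbols.

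Suppressive and secreted mediators had the lowest share detected of the Treg lists, 18 of 31 (58.1%), and a median of 6.07 TPM. That share is near the 52.7% of all nuclear coding genes. Ltb, the lymphotoxin beta subunit that organises lymphoid tissue, led with 523 ± 13.7 TPM. Lgals1 (galectin-1) had 143 ± 11.3 TPM. Nt5e (CD73) and Entpd1 (CD39), which together turn extracellular ATP to adenosine, had 99.3 ± 6.83 and 33.0 ± 3.52 TPM. Il10 was low, at 6.62, 6.31 and 3.62 CPM, from 70, 77 and 36 counts. Gzmb, the cytotoxic granzyme, had 5.01, 2.38 and 2.31 CPM. Replicate 3 was the lowest for Il10, and replicate 1 was the highest for Gzmb. Ebi3, a subunit of interleukin-35, had 18.9 ± 3.05 TPM, whereas its partner Il12a had 0, 3 and 0 counts.

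Several cytokines of effector T cells had few or no counts. Il2 had 2 counts in each library, Il17f had 3, 3 and 2, and Il17a and Il22 had none, which allows up to 0.301 CPM in the shallowest library. Il4 had 0.946, 0.819 and 1.21 CPM and Ifng had 3.12, 1.80 and 1.71 CPM. In contrast, Tnf (50.5, 49.2 and 56.6 CPM) and Lta (36.0, 35.4 and 32.6 CPM) were detected at levels that hardly differed between libraries. In TPM, Tnf reached 87.0 ± 10.0 and Lta 68.4 ± 1.64.

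Transcripts of cell division were present at low levels. In the S phase, G2 and mitosis list 30 of 32 were detected, against 52.7% of nuclear coding genes, with a median of 3.57 TPM. Mki67, a marker of cycling cells, had 66.7, 60.9 and 47.1 CPM, or 15.7 ± 2.08 TPM, and Top2a, which resolves entangled DNA, had 10.2 ± 1.01 TPM. Replicate 3 was the lowest for both. Some S phase genes stood higher, with Pcna, the polymerase clamp, at 96.9 ± 12.5 TPM and the replicative helicase subunits Mcm6 and Mcm4 at 61.5 ± 2.67 and 57.7 ± 5.95 TPM, while Rrm2, a subunit of the reductase that makes deoxynucleotides, and Tyms, which makes thymidylate, lay below Mki67 at 9.09 ± 0.293 and 6.27 ± 0.343 TPM. Kif11 was listed at 0, in a run of genes at or near 0.

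Markers of other splenic cells made up a measurable share of the RNA, and those of red pulp macrophages were the highest by summed CPM. All 16 of 16 markers were detected, against 52.7% of nuclear coding genes, with a median of 84.0 TPM. Summed levels were 1058, 2769 and 2037 CPM in replicates 1, 2 and 3. Hmox1, which degrades heme, had 105, 260 and 175 CPM. Slc40a1, the iron exporter ferroportin, had 171, 473 and 363 CPM. Vcam1, an adhesion molecule of these macrophages, had 197, 497 and 360 CPM. Each gene was lowest in replicate 1 and highest in replicate 2, and replicate 3 lay between. Spic, the factor that red pulp macrophages require, had 29.9, 105 and 82.8 CPM, and Mertk, a receptor for dying cells, had 32.0, 113 and 92.2 CPM. Hmox1 was the most abundant member in TPM (282 ± 126), close to the mean level of Ikzf2, but its SD was far larger.

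The macrophage markers moved together between libraries. All 16 of 16 passed the 2-fold mark, against 2.73% of genes, and all 16 were ordered with replicate 1 lowest and replicate 2 highest, as were 2083 of 11246 genes (18.5%). The fold range ran from 2.06 for Cd68, a lysosomal protein of phagocytes, to 3.39 for Mertk. The median log2 ratio was 1.36 for replicate 2 to replicate 1 and 0.88 for replicate 3 to replicate 1. Without replicate 1, 0 of 16 passed the mark, and replicate 3 lay below replicate 2 for 16 of 16, as for 56.6% of genes, with a median log2 ratio of -0.49. Without replicate 2, 2 of 16 did, and without replicate 3, 16 of 16. The genes share their libraries, so they are not independent replicates of a difference. The part of macrophage RNA in the values of other genes was not tested.

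The summed dendritic cell and monocyte lists were also lowest in replicate 1 and highest in replicate 2. The dendritic cell list summed to 269, 652 and 458 CPM, and 7 of its 9 tested members varied, against 2.73% of all tested genes. Cd74, the invariant chain of class II MHC, had 96.8, 216 and 141 CPM, and Sirpa, a receptor of myeloid cells, had 72.0, 211 and 153 CPM. Both are also made by macrophages. Genes more restricted to dendritic cells differed in level. Xcr1, with 7, 5 and 7 counts, and Flt3 were among the 5 of 16 members under 1 CPM in each library. Of the 16, 10 were detected (62.5%), against 52.7% of nuclear coding genes. Zbtb46, a factor of classical dendritic cells, had 19.0, 22.2 and 25.6 CPM, Cadm1, an adhesion molecule, had 19.3, 51.7 and 41.6 CPM, and Clec9a, a receptor for dead cells, had 1.70, 4.18 and 5.02 CPM. The monocyte list summed to 282, 500 and 396 CPM, of which Csf1r, also a macrophage marker, made up 57.3%. Without Csf1r the sums were 156, 170 and 178 CPM, with replicate 3 the highest. Lyz2, the myeloid lysozyme, had 15.6, 18.1 and 17.9 CPM, and Itgam stayed under 1 CPM in each library. Without replicate 1, 0 of 9 dendritic cell and 0 of 9 monocyte markers passed the 2-fold mark.

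B cell markers were low apart from Ighm. The heavy chain gene Ighm had 391, 356 and 404 CPM and made up 77.8% of the summed list. Igkc, the kappa light chain, had 3.41, 3.85 and 5.42 CPM, and Ighm was 26.5 ± 5.70 times Igkc in TPM. Igkc and Ighd (10.7, 15.6 and 18.2 CPM) were lowest in replicate 1 and highest in replicate 3, whereas Ighm was lowest in replicate 2. Without Ighm, the list summed to 74.7, 112 and 142 CPM. Of 9 tested members, Cd79a, Bank1 and Blnk varied, against 2.73% of all tested genes, and none of the 9 did without replicate 1. Plasma cell markers summed to 4.73, 4.75 and 8.03 CPM, and 9 of 11 stayed under 1 CPM in each library. Of the 11, 1 was detected, against 52.7% of nuclear coding genes.

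The lists of neutrophils, NK cells, CD8 T cells, gamma delta T cells, and basophils and mast cells summed to at most 25.9 CPM in any library. Neutrophil markers summed to 5.30, 14.8 and 10.6 CPM, with 7 of 15 at 0 in each library (as were 28.9% of nuclear coding genes), S100a8 and Ly6g among them, and Csf3r making up 63.3%. NK cell markers summed to 21.4, 24.3 and 25.9 CPM, with Ncr1 at 0, and CD8 T cell markers to 19.0, 17.1 and 19.1 CPM. Gamma delta T cell markers summed to 14.2, 16.1 and 10.9 CPM. Basophil and mast cell markers summed to 2.74, 2.13 and 3.41 CPM, with Mcpt8 and Fcer1a at 0. Erythroid markers summed to 111, 122 and 131 CPM, 51.8% of it from the transferrin receptor Tfrc, which dividing cells of many types make. Hbb-bs, a beta globin, had 5.30, 15.5 and 15.2 CPM, again with replicate 1 lowest. In TPM, Hbb-bs (mean 43.2) stood above Tfrc (mean 27.7) in 2 of 3 libraries.

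In the remaining lists a single gene carried a large share of the summed CPM. Eosinophil markers summed to 32.6, 69.1 and 58.3 CPM, of which Ccr3 made up 86.0%, while Prg2 was at 0. Stromal and endothelial markers summed to 233, 289 and 294 CPM, of which Pecam1 made up 83.8%, while the fibroblast genes Dcn and Lum were at 0. Plasmacytoid dendritic cell markers summed to 148, 179 and 167 CPM, of which Pacsin1 made up 47.5%. Platelet and megakaryocyte markers summed to 15.6, 21.5 and 21.4 CPM, of which Gp1ba made up 48.8%, with Pf4 at 0.

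**Figure D4:**
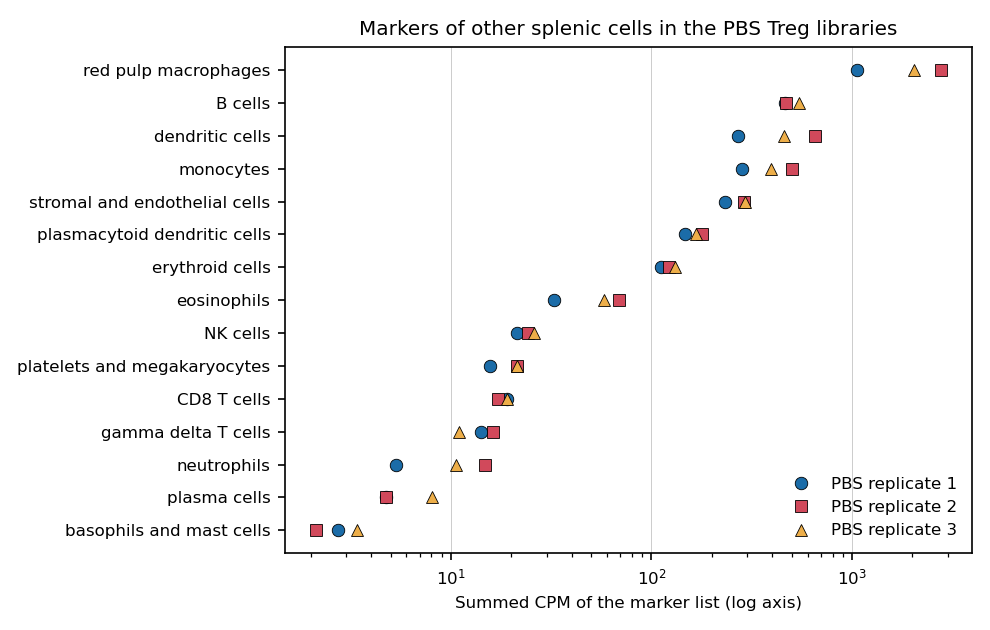
Summed CPM of each marker list of other splenic cells (log axis), with 1 symbol per PBS library. Red pulp macrophages are the highest list, from 1058 CPM in replicate 1 to 2769 CPM in replicate 2, while plasma cells and the list of basophils and mast cells lie under 10 CPM.

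Over all genes with a mean of at least 5 CPM, the median range across the 3 libraries was 1.17-fold on TMM-scaled CPM. The spread still exceeded counting error at each level of abundance. The median coefficient of variation (CV) over libraries was 13.1% for genes of 5 to 20 CPM, 6.98% at 20 to 100 CPM, 5.44% at 100 to 500 CPM and 6.21% above, where counting error alone gives 9.35%, 4.64%, 2.31% and 1.14%. For the Treg transcription factors the median CV was 5.03%, for the cytokine receptors 4.73% and for proximal T cell receptor signalling 4.75%, against 8.11% over all genes with a mean of at least 5 CPM and 45.3% for the macrophage markers. Without replicate 1 these medians were 4.11%, 3.27%, 2.87%, 5.52% and 22.3%. The CV depended on abundance, and the lists were not matched to all genes for it. The lower medians of the Treg lists are therefore not read as a steadier expression. The common biological coefficient of variation was 10.6%. Cytosolic ribosomal protein genes took 3.79%, 3.21% and 2.95% of the counts in replicates 1, 2 and 3, and their median log2 ratios to replicate 1 were -0.30 and -0.46. Between the other libraries, the median log2 ratio of replicate 3 to replicate 2 was -0.16.

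Of the 307 genes that varied 2-fold, most were low in replicate 1. There were 280 with their lowest value in replicate 1 (2.49% of all tested genes), and 21 with their highest value there. The order of the macrophage markers, replicate 1 below 3 below 2, was that of 236 of the 307 (76.9%), a count that has no value without replicate 1. Without replicate 1, 11 genes varied, without replicate 2, 126, and without replicate 3, 257. Other-cell lists held 35 of the 307, and 265 were in no list. The variable genes were mostly scarce: 35 had 50 CPM or more, of 4166 tested genes at that level.

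The widest ranges are given for protein-coding genes other than predicted models and receptor segments. Slc15a2, a transporter of small peptides (chr16:36750177-36784962, minus strand), had 52.4, 5.57 and 74.5 CPM, a 13.05-fold range with replicate 2 low. It is the exception in direction, since the next genes by range were low in replicate 1: the potassium channel gene Kcnj2 had 1.51, 8.19 and 6.33 CPM, and Fgd2, a regulator of the GTPase Cdc42, had 3.69, 18.6 and 13.6 CPM. Dmpk (6.05, 28.8 and 15.97 CPM), the cytokine receptor genes Csf3r and Csf2rb, the membrane repair gene Dysf, the B cell adaptor Blnk, the transporter gene Abca9 and Nav1 had ranges of 4.02-fold to 4.56-fold. Each of these was lowest in replicate 1. Without replicate 1, the ranges of these 9 genes were 1.33-fold to 2.12-fold. The 8 coding neighbours of Slc15a2 on chromosome 16 that passed the mean of 5 CPM ranged only 1.11-fold to 1.63-fold, Cd86 the most.

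**Figure D5:**
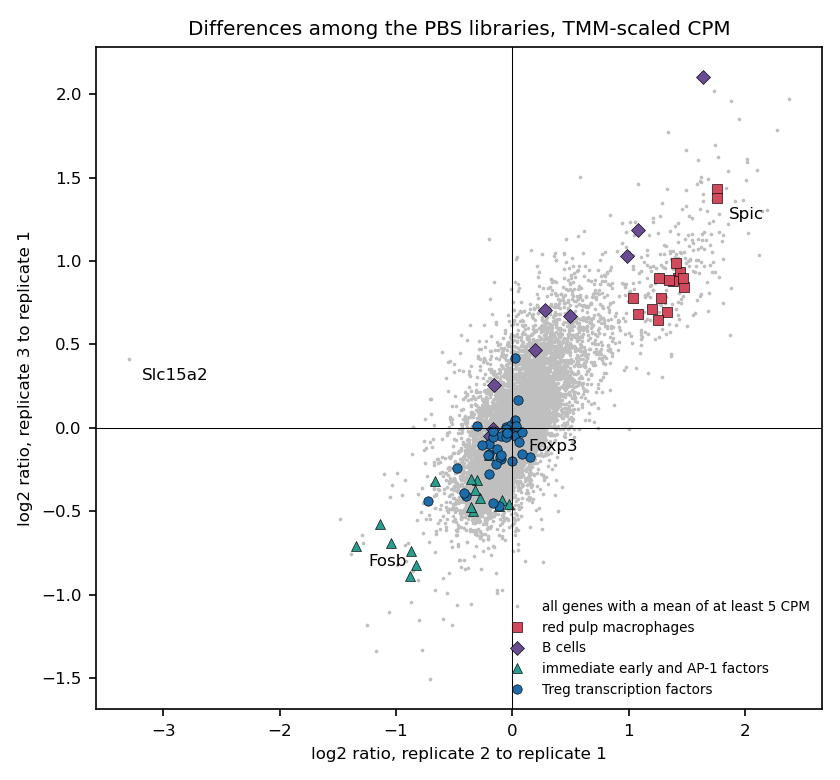
Log2 ratio of replicate 2 to replicate 1 (horizontal) and of replicate 3 to replicate 1 (vertical) for genes with a mean of at least 5 CPM (grey), with 4 lists coloured. Red pulp macrophage markers lie in the upper right, around medians of 1.36 and 0.88, immediate early genes lie in the lower left, Treg transcription factors lie near the origin and Slc15a2 lies alone at the far left.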

How the data were processed

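RNA was measured in 3 Treg samples of mice given PBS. Per the labels' protocols, the authors removed ribosomal RNA in library preparation, and the design text gives a NextSeq 500. Per the series' design text and the submitters' processing notes, the authors mapped reads to GRCm38 with STAR (2.5.0 or 2.5.0b) and obtained gene counts with featureCounts 1.5.0 on GENCODE M13. The deposited values are raw counts for 51138 genes. Whether strand was used, and how multi-mapping reads were treated, is not given in the sources used here. Of 564 listed genes matched, 37 overlap another gene's exons on the same strand and 120 on the opposite strand.

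CPM were computed here from library totals. TPM used union exon lengths of GENCODE M21, on the same build, with all genes in the total. Fold ranges used TMM factors of edgeR 4.0.16 (R 4.3.3), over genes with a mean of at least 5 CPM, and scripts were tested on simulated data. No test was made, since there is 1 group. DESeq2 1.42.0 size factors and other settings were tried as alternatives. Floors cover counting error only, because PCR copies were not told apart by molecular identifiers.

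Of the listed symbols, Ahsp and Folr4 were not matched. The members and the 32 gene lists were chosen with earlier results of these data known. The rule for named genes took fixed Treg and T cell markers, the 15 most abundant coding genes, the 10 genes with the most counts, the 6 most abundant members of each Treg list with those under 1 CPM, the 3 leading markers of each other cell type with those at 0, and the 10 protein-coding genes with the widest ranges (without predicted models, segments and histones). Flicr, Ikzf4, Lef1, Stat5a, Jak3, Socs1, Zap70, Tbx21, Irf4, Batf, Prdm1, Zeb2, Fos, Fosb, Klf4, Il7r, Pdcd1, Lag3, Cd28, Cxcr3, Ccr2, Ccr4, Ccr8, Itgae, Klrg1, Nrp1, Ebi3, Entpd1, Lta, Il4, Ifng, Top2a, Hmox1, Spic, Mertk, Cd68, Cd79a, Igkc, Lyz2, Zbtb46, Cadm1, Clec9a, Rrm2, Tyms, Flt3 and Itgam were named after their values were seen. Some genes that the rule or the lists hold are not reported here. The 4 FP columns were left out because the question is the baseline.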

Additional observations from a re-analysis of the deposited data

How the results depend on the processing

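No paired analysis was possible because the libraries form 1 group and no result comes from a test. With mitochondrial, ribosomal and small RNA left out of the total, mean CPM became 623 for Foxp3, 1395 for Ikzf2 and 763 for Il2ra, and mean TPM became 551, 486 and 541, since that total is smaller. With the longest transcript as length, TPM was 302 for Ikzf2 and 347 for Il2ra. The number of genes varying 2-fold was 307 as reported, 1320 with a mean of at least 1 CPM, 102 with at least 20 CPM, 4283 with at least 1 count in each library, and 11 to 257 with a replicate left out (11 without replicate 1, 126 without replicate 2). Without its most abundant member, the mean summed CPM was 110 for B cells, 2.89 for plasma cells, 168 for monocytes, 3.76 for neutrophils, 86.5 for plasmacytoid dendritic cells, 16.8 for NK cells, 10.9 for CD8 T cells, 7.10 for gamma delta T cells, 58.4 for erythroid cells, 9.97 for platelets and megakaryocytes, 1.04 for basophils and mast cells, 7.44 for eosinophils and 44.1 for stromal and endothelial cells. Red pulp macrophages ranged from 1548 to 2403 CPM with a replicate left out. DESeq2 size factors, which replaced the library total or, for the number of variable genes, TMM, moved none of the 20 values recomputed with them by more than the spread between replicates or, for counts, 1.5 times. Median CVs and single fold ranges without replicate 1 were added after seeing the data. Genes at a few counts, such as Il10 and the lowest marker lists, are limited by depth.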

Other observations

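The genes named here were chosen after their values were seen. Y-linked genes were detected in each PBS library: Ddx3y had 140, 110 and 125 CPM and Kdm5d had 116, 121 and 130 CPM, while the X-inactivation RNA Xist had 0.473, 0.491 and 0.603 CPM. The activation marker Cd69, which is not in the immediate early list, had 209, 123 and 152 CPM, with replicate 1 the highest. Malat1 had 12523, 16716 and 18085 CPM, with replicate 1 the lowest.

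Of the coding genes of the nuclear genome, 6300 of 21828 (28.9%) had no count in any PBS library. Jund, Kif11 and Il12rb1 were among them and had 1, 0 and 1 counts over all 7 libraries of the series. Each lies in a stretch of neighbouring coding genes at or near 0: 4 genes from Jund to Pde4c with 0 counts in the PBS libraries, 4 genes from March5 to Hhex with 1, and 6 genes from Mpv17l2 to Kcnn1 with 1. The stretches of Jund and Il12rb1 lie side by side on chromosome 8, with the coding gene Rab3a (6 counts) between them. On their outer sides lie Lsm4 (452 counts) and Ccdc124 (485 counts). The stretch of Kif11 on chromosome 19 lies between Cpeb3 (51 counts) and Exoc6 (2191 counts).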
